A study of Mus musculus with 18 samples.

Results

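The subjects here are 10 genes for AP-1 and BATF transcription factors, namely Fos, Fosb, Fosl1, Fosl2, Jun, Junb, Jund, Batf, Batf3 and Atf3. They were chosen by name from 17178 named genes on the array and were found by their accession in a RefSeq gene table. Together they had 12 probes of 41174. Fos and Jun had 1 probe each, spotted 10 times per array, Junb and Fosl2 had 2 probes each, and the other genes had 1 probe. All 10 genes passed the filter on dim probes, which asked for a signal well above background on at least 3 arrays.

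AP-1 is a dimer of basic leucine zipper proteins that binds DNA at short palindromic sites. FOS proteins cannot pair with themselves and need a JUN partner, whereas JUN proteins can pair with each other, with FOS or with ATF proteins. In T cells, FOS and JUN are made and activated after antigen receptor signals through RAS, ERK and JNK, and they act with NFAT on cytokine genes. BATF and BATF3 take the place of FOS beside a JUN protein and bind with the factors IRF4 and IRF8, a pairing needed for several effector T cell programmes.

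RNA came from CD44low CD4+ T cells sorted from the spleens of 18 C57BL/6 mice, with 1 mouse per array and 3 mice in each of 6 groups. LAT is the membrane adaptor that couples the T cell receptor to phospholipase C-gamma and RAS. By the titles, LAT KO mice were ERCre+ LAT f/- (one allele floxed, the other null), Y136F mice were ERCre+ LAT f/m (a floxed allele and one with the Y136F change, which removes the docking tyrosine for phospholipase C-gamma), and WT mice were ERCre- LAT f/-. All mice had tamoxifen for 1 or 4 weeks, which activates the Cre-oestrogen receptor fusion and so deletes the floxed allele in any cell that carries it, with no cell type named for its promoter. By these titles WT cells kept LAT from a single floxed allele and lacked the Cre, so that an effect of the Cre and of the LAT changes cannot be told apart. The series text instead calls all mice Cre-positive. The comparisons ask how basal, or tonic, signalling through LAT sets gene expression in resting T cells.

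Values are log2 of the scanner's processed intensity minus the 75th percentile of the same array, called the scaled log2 level below. Levels of different probes are not comparable, so each gene is followed across arrays only. A gene was called changed at a limma adjusted p under 0.05, with Benjamini-Hochberg adjustment over all features tested. These p-values rest on a spread between mice within groups that is estimated per gene over all 6 groups together. A group outside a comparison therefore also enters its p-value. For Jun the SD was 0.90 in LAT KO cells at 1 week, against 0.07 in Y136F and 0.18 in WT cells at 4 weeks. In bulk RNA, fewer cells of a type and less RNA per cell cannot be told apart. Errors of differences are standard errors from the fit.

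The 75th percentile lay between 1124 and 1896 intensity units on the 18 arrays, and 84.2% to 97.9% of spots were well above background. Spots marked as outliers numbered 187 to 952 on 17 arrays and 7888 on the array of LAT KO replicate 3 at 1 week. All Y136F mice were labelled female, all 4-week LAT KO and WT mice male, and the 1-week LAT KO and WT groups each held 2 females and 1 male. Sex-linked genes went against the label on 2 arrays. The array labelled LAT KO replicate 1 at 1 week, a female by its label, had Y-linked signal at the level of males, and the array labelled LAT KO replicate 2 at 4 weeks, a male by its label, had it at the level of females. Whether these arrays were exchanged between the 2 times was not tested. The labels are used as given throughout, and the calls of members and gene lists in LAT KO cells are also given without both arrays. Lat itself had a mean scaled log2 level of 2.52 in LAT KO, 4.25 in Y136F and 3.19 in WT cells at 1 week, and of 2.71 in LAT KO, 4.07 in Y136F and 3.59 in WT cells at 4 weeks. Its difference between LAT KO and WT was -0.67 ± 0.26 at 1 week and -0.88 ± 0.23 at 4 weeks, and limma called neither (adjusted p = 1 and 0.218). Against Y136F, Lat was lower in LAT KO cells by 1.73 ± 0.26 at 1 week, not called (limma adjusted p = 0.0814), and by 1.37 ± 0.23 at 4 weeks, called (adjusted p = 0.00267). The probe's place relative to the deleted part is not given in the sources used here, and 1 LAT KO array at 1 week had no Lat value after outlier spots were left out. CD4 T cell markers were high on every array, with summed signals of 131 to 184 times the 75th percentile over 9 genes.

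Promoter windows of 300 bases, 250 before to 50 after the gene start, were available from RefSeq (build GRCm38.p6) for 9 of the 10 genes. They are shown for the 3 genes whose levels the results below turn on most, with motif matches in capitals. Fos lies at chr12:85473640-85473939 on the plus strand, Jun at chr4:95052173-95052472 on the minus strand and Batf at chr12:85686470-85686769 on the plus strand.
Fos: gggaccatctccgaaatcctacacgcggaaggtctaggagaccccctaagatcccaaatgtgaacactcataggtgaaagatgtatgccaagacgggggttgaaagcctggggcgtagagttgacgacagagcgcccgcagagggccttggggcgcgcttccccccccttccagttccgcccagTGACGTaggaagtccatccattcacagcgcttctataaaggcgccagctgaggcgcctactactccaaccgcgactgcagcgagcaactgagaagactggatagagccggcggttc
Jun: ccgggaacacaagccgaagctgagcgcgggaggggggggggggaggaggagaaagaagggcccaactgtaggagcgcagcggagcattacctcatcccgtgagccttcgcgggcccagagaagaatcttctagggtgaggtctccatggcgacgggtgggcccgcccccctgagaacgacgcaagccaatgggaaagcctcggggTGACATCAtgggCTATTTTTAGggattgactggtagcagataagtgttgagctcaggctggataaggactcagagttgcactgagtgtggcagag
Batf: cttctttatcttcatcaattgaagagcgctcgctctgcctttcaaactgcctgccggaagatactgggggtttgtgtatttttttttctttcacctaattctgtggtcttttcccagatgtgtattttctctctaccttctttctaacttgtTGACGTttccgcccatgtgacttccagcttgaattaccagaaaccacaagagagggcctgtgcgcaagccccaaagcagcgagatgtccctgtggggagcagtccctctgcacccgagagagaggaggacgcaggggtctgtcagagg
Searched on both strands were TGANTCA and TGACNTCA, the core AP-1 and CRE-like letters, TGACGT, the first part of a cyclic AMP response element, and the CArG and MEF2 boxes by name. A full cyclic AMP response element would match both TGACNTCA and TGACGT. Fos and Batf each held 1 TGACGT, at 66 to 61 and at 98 to 93 bases before the start. The Jun window held TGACATCA, a match of TGACNTCA, at 45 to 38 bases before the start and a MEF2 box at 33 to 24 bases before it. Among the members' windows, Atf3 held the other matches, a TGACGT on the opposite strand and a MEF2 box. Of 32851 windows of this length, 7.81% held TGANTCA, 8.83% TGACNTCA, 7.51% TGACGT, 1.63% a CArG box and 0.557% a MEF2 box. A match describes letters only and is not a measured binding site.

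Fos is the founding member of its family and a classical immediate early gene. At 1 week its scaled log2 level was -5.47, -7.25 and -5.36 in LAT KO cells, -5.53, -5.86 and -5.76 in Y136F cells, and -3.89, -4.37 and -3.58 in WT cells. At 4 weeks it was -6.48, -6.40 and -6.14 in LAT KO cells, -4.79, -4.94 and -4.52 in Y136F cells, and -3.52, -4.19 and -4.65 in WT cells. Every LAT KO array was thus below every WT array of its time, every 1-week Y136F array was below every 1-week WT array, and the 4-week Y136F and WT arrays overlapped. The difference between LAT KO and WT was -2.08 ± 0.44 at 1 week (limma adjusted p = 0.338) and -2.22 ± 0.44 at 4 weeks (adjusted p = 0.0712), and neither was called. Between Y136F and WT it was -1.77 ± 0.44 at 1 week (limma adjusted p = 0.226) and -0.63 ± 0.44 at 4 weeks (adjusted p = 0.487). LAT KO and Y136F cells differed by -1.59 ± 0.44 at 4 weeks, which also missed the threshold in limma (adjusted p = 0.0616), and no arrays overlapped. Over 21 other settings that difference ran from -2.37 to -0.55, and it was called in 3 of them, with slide as a random block, with only the groups compared in the fit and with array weights (limma adjusted p = 0.0405, 0.025 and 0.00517). Only 2 of 3 arrays in each LAT KO group had a Fos signal well above background, against all arrays of the other groups, so the size of these differences depends on signals near background.
The Fos differences were sizeable beside their errors, with 95% intervals of -3.01 to -1.14 and -3.15 to -1.28 for LAT KO against WT at 1 and 4 weeks, but lay among 31530 and 31539 tests. The 4-week difference between LAT KO and WT was called with normexp background correction (-0.92, limma adjusted p = 0.0432), which also made it smaller, with slide as a random block (-2.27, adjusted p = 0.0443) and with array weights (-2.12, adjusted p = 0.00114). Without the 2 arrays whose sex-linked genes went against the label it was -2.19 (limma adjusted p = 0.193), the 1-week difference was -2.36 ± 0.50 (adjusted p = 0.176) and that between LAT KO and Y136F at 4 weeks -1.56 ± 0.50 (adjusted p = 0.161). The 2 slides that held both 4-week groups gave differences of -1.49 and -2.96. For Y136F against WT at 4 weeks, the 3 such slides gave -0.74, 0.13 and -1.27, and with labelled sex as a term the difference was 0.15 ± 0.60 (limma adjusted p = 0.976), so no direction is given.

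**Figure D1:**
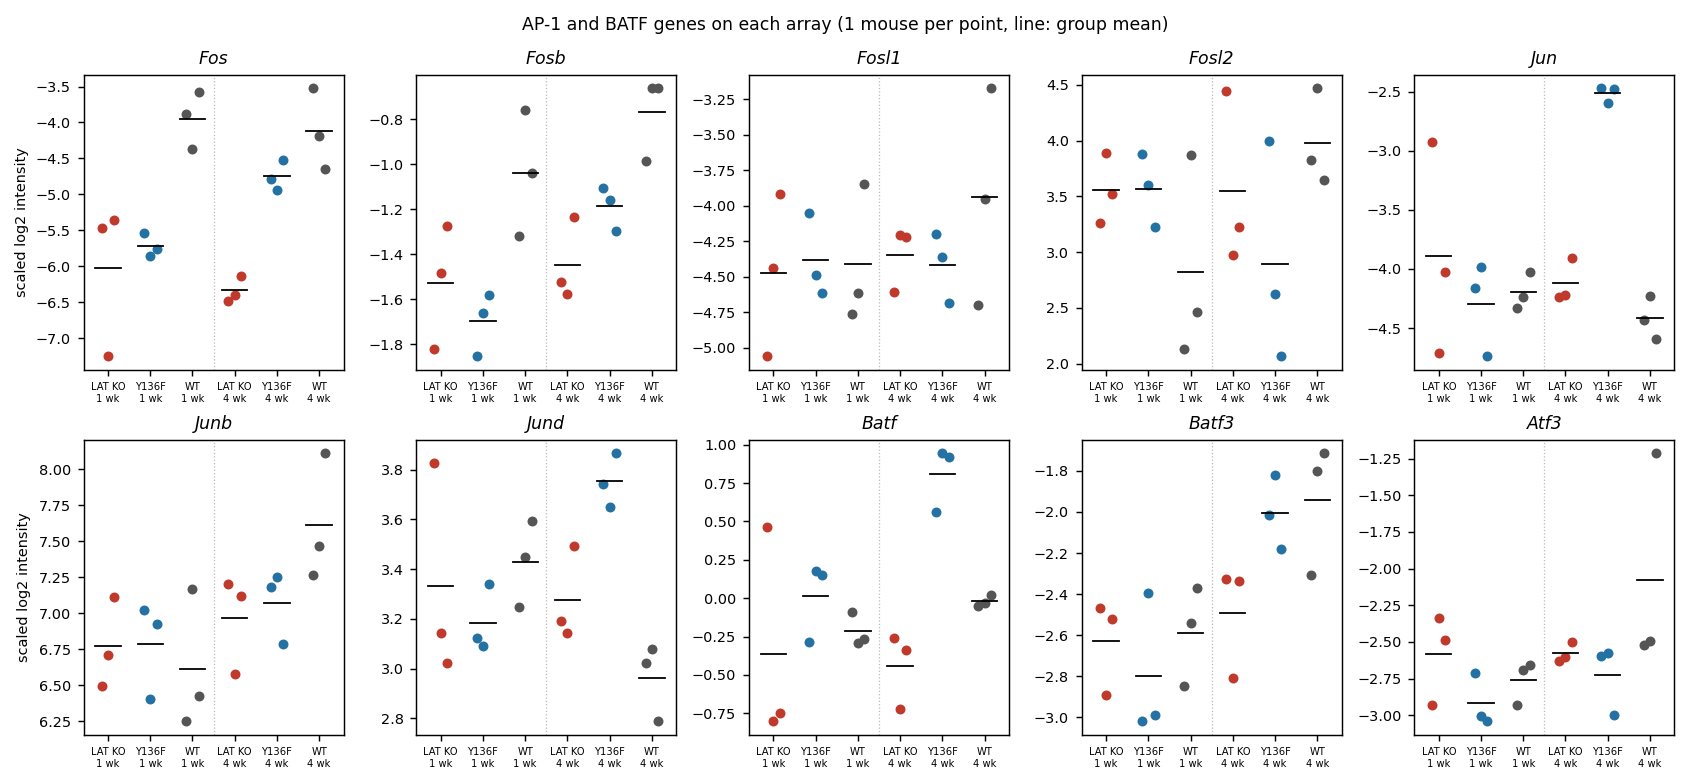
Scaled log2 level (y axes, log2 units, each with its own range) of the 10 genes on every array, by group along the x axis, with 1 point per mouse and a line at the group mean. For Junb and Fosl2 the brighter probe is drawn. Fos points of both LAT KO groups lie below the WT points of the same time, and the 4-week Y136F points of Jun lie at -2.60 to -2.47, above all other arrays.

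Fosb encodes another strong activator of the family. Its level was -1.82, -1.48 and -1.27 in LAT KO cells, -1.85, -1.66 and -1.58 in Y136F cells, and -1.32, -0.76 and -1.04 in WT cells at 1 week. At 4 weeks it was -1.52, -1.58 and -1.24 in LAT KO cells, -1.11, -1.16 and -1.30 in Y136F cells, and -0.99, -0.66 and -0.66 in WT cells. All mutant arrays lay below WT in 3 of these 4 pairs of groups, and 1 LAT KO array overlapped WT at 1 week. The differences from WT were -0.49 and -0.68 in LAT KO cells and -0.66 and -0.42 in Y136F cells at 1 and 4 weeks, each ± 0.18, and limma called none (adjusted p = 1, 0.22, 0.313 and 0.259). Over the 18 arrays Fosb and Fos correlated with r = 0.63, a description of arrays that share groups. With the percentage of spots well above background on each array, Fosb had r = 0.54 and Batf3 r = 0.555. The other member probes had r = -0.11 to 0.49, and the part of this in the differences was not tested. Fosl1, for a FOS-related protein without a strong activation domain, was dim at -5.06 to -3.17, and its groups overlapped in every comparison. Fosl2, the other such gene, is described with Junb below, since its probes disagreed.

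Jun encodes the main partner of FOS and the target of the kinase JNK. At 4 weeks its level was -4.24, -4.22 and -3.91 in LAT KO cells, -2.47, -2.60 and -2.48 in Y136F cells, and -4.43, -4.23 and -4.60 in WT cells. All 3 Y136F arrays were above all LAT KO and WT arrays, which overlapped with each other. Jun rose in Y136F against WT by 1.90 ± 0.34 (limma adjusted p = 0.00364), a 3.74-fold higher mean level, with a 95% interval of 1.18 to 2.62. Its size ran from 1.23 with normexp to 2.26 with quantile normalization over 20 other settings. Against Y136F, Jun was lower in LAT KO cells by 1.61 ± 0.34 (limma adjusted p = 0.0112), 3.05-fold. Between LAT KO and WT the difference was 0.30 ± 0.34 (limma adjusted p = 0.656), with a 95% interval of -0.43 to 1.02.
At 1 week the Jun level was -2.93, -4.71 and -4.02 in LAT KO cells, -4.16, -3.99 and -4.74 in Y136F cells, and -4.33, -4.24 and -4.03 in WT cells. The groups overlapped, and the LAT KO array at -2.93 is replicate 1, whose sex-linked genes went against its label. On that array the memory and effector T cell list had a mean scaled log2 level of 1.66, against 0.43 and 0.51 on the other 1-week LAT KO arrays and 0.32 to 0.64 in WT, and the part of these cells in its Jun level was not tested. Y136F and WT differed by -0.10 ± 0.34 at 1 week (limma adjusted p = 0.948). The change of the Y136F effect on Jun between 1 and 4 weeks was 2.0 ± 0.48 and missed the threshold in limma (adjusted p = 0.0792). It passed without the 2 arrays against their labels (adjusted p = 0.00917), with only the groups compared in the fit (adjusted p = 0.0125) and with array weights (adjusted p = 0.00573), and ran from 1.22 to 2.16 over 26 settings. The 2 arrays are in none of the groups of that contrast, so leaving them out kept the difference and lowered its error to 0.38.

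Jund, whose product is the JUN protein most abundant in resting cells of many types, moved with Jun by a smaller amount. At 4 weeks its level was 3.19, 3.14 and 3.49 in LAT KO cells, 3.74, 3.65 and 3.87 in Y136F cells, and 3.02, 3.08 and 2.79 in WT cells, so that no Y136F array overlapped another group. It rose in Y136F against WT by 0.79 ± 0.18 (limma adjusted p = 0.0197), 1.73-fold. LAT KO cells lay 0.48 ± 0.18 below Y136F cells (limma adjusted p = 0.226) and 0.31 ± 0.18 above WT cells (adjusted p = 0.509), neither called. At 1 week the range was 3.02 to 3.83 in LAT KO, 3.09 to 3.34 in Y136F and 3.25 to 3.60 in WT cells. Its highest 1-week array was again LAT KO replicate 1. The change of the Y136F effect on Jund between the times was 1.04 ± 0.26 (limma adjusted p = 0.0907), and it passed without the 2 arrays against their labels (adjusted p = 0.009) and with the series matrix values (adjusted p = 0.0436). Leaving out the 2 arrays, which are in none of its groups, kept the difference and lowered its error to 0.195.
The Jun and Jund calls between Y136F and WT at 4 weeks compare 3 mice labelled female with 3 labelled male, so that sex and genotype cannot be told apart within that time. With labelled sex as a term, Jun differed by 1.93 ± 0.51 (limma adjusted p = 0.153) and Jund by 0.68 ± 0.27 (adjusted p = 0.422), with larger errors and no call. Here and elsewhere that term rests on the 1-week LAT KO and WT groups alone, the only ones with both labelled sexes. Among them, LAT KO replicate 1 had sex-linked genes against its label, so this fit cannot separate sex from genotype. Within the 3 slides that held both 4-week groups, Jun was higher in Y136F by 1.63, 2.12 and 1.96 and Jund by 0.57, 1.08 and 0.72. Leaving out Y136F replicate 1, Y136F replicate 3 or WT replicate 3 ended the Jund call (limma adjusted p = 0.0616, 0.101 and 0.112).

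**Figure D2:**
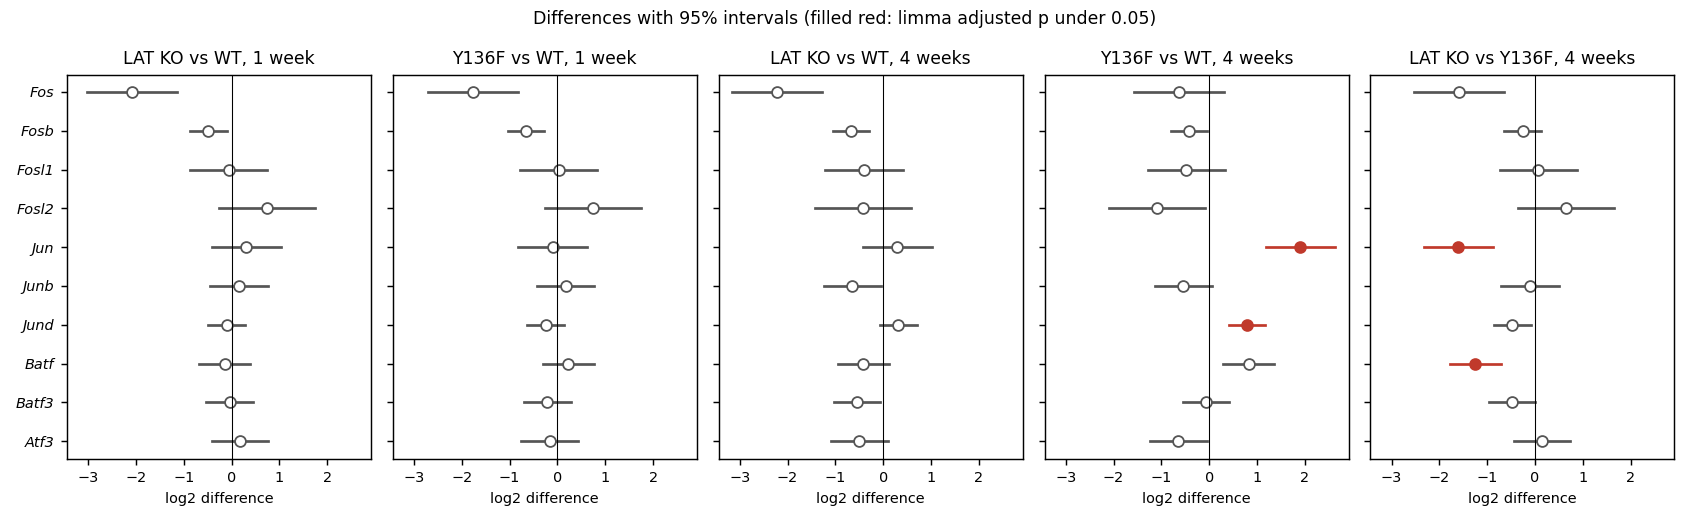
Log2 difference (x axis) of each gene in 5 comparisons, as points with 95% confidence intervals from the limma fit; filled red marks an adjusted p under 0.05. Jun and Jund are marked in Y136F against WT at 4 weeks, Jun and Batf in LAT KO against Y136F at 4 weeks, and Fos lies to the left of 0 in all 5 panels.

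Batf encodes the partner that replaces FOS in T cells. At 4 weeks its level was -0.26, -0.72 and -0.34 in LAT KO cells, 0.56, 0.94 and 0.92 in Y136F cells, and -0.05, -0.03 and 0.02 in WT cells. The 3 groups did not overlap, with Y136F highest, WT between and LAT KO lowest. LAT KO cells fell below Y136F cells by 1.25 ± 0.25 (limma adjusted p = 0.00756), 2.38-fold. The difference between Y136F and WT was 0.83 ± 0.25, 1.78-fold, and missed the threshold in limma (adjusted p = 0.09). LAT KO and WT differed by -0.42 ± 0.25 (limma adjusted p = 0.517).
The difference between Y136F and WT was called with only the groups compared in the fit (limma adjusted p = 0.0123), with array weights (adjusted p = 0.00304) and without the 2 arrays against their labels (adjusted p = 0.00211). Those 2 arrays are in neither group, so leaving them out kept the difference at 0.83 and lowered its error from 0.25 to 0.145. The size of the difference ran from 0.50 with labelled sex as a term to 0.95 over 20 settings. Within the 3 slides that held both groups it was 0.98, 0.90 and 0.61. At 1 week Batf was 0.46, -0.80 and -0.75 in LAT KO cells, -0.29, 0.17 and 0.15 in Y136F cells, and -0.09, -0.29 and -0.27 in WT cells. The highest of these arrays was LAT KO replicate 1, and without the 2 arrays the difference between LAT KO and WT was -0.56 ± 0.16 (limma adjusted p = 0.513), against -0.15 ± 0.25 with them (adjusted p = 1).
The Jun and Batf calls between LAT KO and Y136F at 4 weeks also rest in part on LAT KO replicate 2, whose sex-linked genes went against its label. Leaving it out alone gave -1.56 for Jun (limma adjusted p = 0.0648) and -1.11 for Batf (adjusted p = 0.0642), and leaving out both such arrays gave the same differences with adjusted p = 0.0073 and 0.000856. Leaving out Y136F replicate 1 ended the Jun call (limma adjusted p = 0.054). With labelled sex as a term neither was called (limma adjusted p = 0.173 for Jun and 0.267 for Batf). Within the 2 slides that held both groups, Jun differed by -1.43 and -1.77 and Batf by -1.26 and -0.82. In every 4-week comparison with Y136F, mice labelled female are set against mice labelled male, so labelled sex and genotype cannot be told apart there.

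Batf3, a close relative of Batf, lay at -2.81 to -2.33 in LAT KO, -2.18 to -1.82 in Y136F and -2.31 to -1.71 in WT cells at 4 weeks. All LAT KO arrays were below those of the other groups. LAT KO differed from Y136F by -0.48 ± 0.23 and from WT by -0.55 ± 0.23, and limma called neither (adjusted p = 0.412 and 0.414). Atf3, for a stress-induced repressor and JUN partner, was -2.63 to -2.50 in LAT KO, -3.00 to -2.57 in Y136F and -2.52 to -1.21 in WT cells at 4 weeks. A single WT array set the top of that range, and the Y136F to WT difference of -0.65 ± 0.28 was not called (limma adjusted p = 0.262).

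The brighter Junb probe gave 7.20, 6.58 and 7.12 in LAT KO cells, 7.18, 7.25 and 6.79 in Y136F cells, and 7.26, 7.47 and 8.11 in WT cells at 4 weeks, with no spot saturated. Junb encodes the JUN protein tied to T helper differentiation. All WT arrays were highest by this probe, and the differences from WT of -0.65 ± 0.29 in LAT KO and -0.54 ± 0.29 in Y136F cells were not called (limma adjusted p = 0.431 and 0.355). The dimmer Junb probe gave 0.31, -0.10 and 0.30 in LAT KO cells, 0.88, 0.81 and 1.24 in Y136F cells, and 0.24, 0.76 and 0.41 in WT cells. By this probe Y136F arrays were highest, and LAT KO cells were lower than Y136F cells by 0.81 ± 0.21 (limma adjusted p = 0.0419 over all probes), a choice of probe made after its values were seen. The brighter probe differed there by -0.10 ± 0.28.
The 2 Junb probes correlated with r = 0.075 over the 18 arrays. The brighter one ran closest with Dennd3, Olfr1410 and Mcts1 (r = 0.986, 0.985 and 0.984) and had r = -0.70 with the arrays' 75th percentile, against r = 0.18 for the dimmer one. The dimmer one ran closest with Smox, Slbp and Ube2t (r = 0.88, 0.87 and 0.86) and had r = 0.67 with Jun. Junb is therefore given as uncertain, and the cause of the disagreement was not tested.
Fosl2 showed the same split. Its brighter probe differed between Y136F and WT at 4 weeks by -1.08 ± 0.48 (limma adjusted p = 0.267) and its dimmer probe by 0.86 ± 0.36 (adjusted p = 0.237 over all probes). The dimmer probe gave -4.12, -5.20 and -4.35 in LAT KO cells, -4.08, -3.45 and -3.25 in Y136F cells, and -4.60, -4.05 and -4.72 in WT cells. Its Y136F values overlapped WT by 1 array, and the 2 probes correlated with r = -0.30. Fosl2 too is given without a direction.

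**Figure D3:**
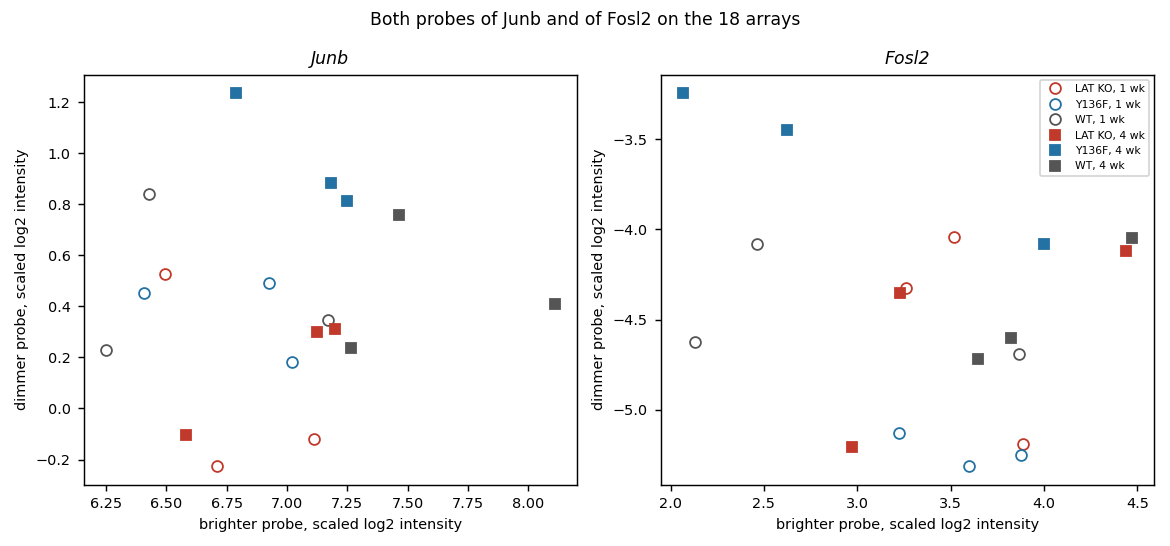
Scaled log2 level of the dimmer probe (y axis) against the brighter probe (x axis) of Junb and of Fosl2, with 1 point per array, open circles for 1 week and filled squares for 4 weeks. The 4-week Y136F squares lie above all other 4-week arrays by the dimmer Junb probe, at 0.81 to 1.24, and within the range of the other groups by the brighter one.

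Counted over the 10 genes, 2 were called in Y136F against WT at 4 weeks, both higher, where 3.4% of all features were called and 2.48% were called higher. Likewise 2 were called in LAT KO against Y136F at 4 weeks, both lower, where 3.38% of all features were called and 2.33% were called lower. No member was called in LAT KO against WT at 1 week (0.019% of all features) or at 4 weeks (0.0983%), or in Y136F against WT at 1 week (0.0159%). At an unadjusted p under 0.05, 2.85%, 11% and 6.04% of all features passed in these 3 comparisons, against 16.3% in Y136F against WT and 12.3% in LAT KO against Y136F at 4 weeks. The members with such a p were Fos and Fosb in the first 3, and also Batf3 and, by its brighter probe only, Junb in LAT KO against WT at 4 weeks. In Y136F against WT at 4 weeks they were Fosb, Fosl2, Jun, Jund, Batf and Atf3, with the Fosl2 probes in opposite directions. For LAT KO against Y136F at 4 weeks they were Fos, Jun, Jund and Batf. Dimmer probes would add Junb in both of these, and Fosl2 in LAT KO against Y136F and, at 1 week, in Y136F against WT. Between LAT KO and Y136F at 1 week no feature was called at all, while 5.72% had an unadjusted p under 0.05.
Groups that did not overlap give a broader count, set against the 25034 features with a value on all 18 arrays. In LAT KO against WT at 4 weeks this held for 6 of 10 members, Fos, Fosb, Junb, Batf and Batf3 lower and Jund higher, against 23.7% of all features. Junb counts here by its brighter probe, and by the dimmer one, chosen after its values were seen, its groups overlapped and the count was 5. In Y136F against WT at 4 weeks it held for 6, with Jun, Jund and Batf higher and Fosb, Junb and Atf3 lower, against 26.6%. By its dimmer probe Junb would stand among the higher genes, for 4 higher and 2 lower. In LAT KO against Y136F at 4 weeks it held for 5, all lower, namely Fos, Jun, Jund, Batf and Batf3, against 23.9% in either direction and 9.86% lower. The dimmer probe of Junb or of Fosl2 would add a lower gene, for 6. At 1 week it held for Fos alone, lower, in LAT KO against WT (3.75% of all features, 2.8% lower), for Fos and Fosb, lower, in Y136F against WT (11.4%, 6.32% lower) and for no member in LAT KO against Y136F (9.88%). Without the 2 arrays against their labels the 4-week members were the same, and at 1 week there were 4 in LAT KO against WT (Fos, Jund and Batf lower, Atf3 higher) and 3 in LAT KO against Y136F (Fosb and Atf3 higher, Batf lower), from 2 LAT KO arrays. The share of all features was not counted for these smaller groups. Groups of 2 and 3 arrays separate more readily than groups of 3, so the shares above do not apply to these counts. The dimmer Fosl2 probe would add Fosl2, lower, in Y136F against WT at 1 week.
The member median at 4 weeks was -0.47 for LAT KO against WT and -0.45 for Y136F against WT, beside medians of -0.17 and -0.19 over all features, and the source of that common shift was not tested. At 1 week the member medians were -0.05 and -0.13, beside -0.05 and -0.12 over all features. LAT KO against Y136F at 4 weeks had a member median of -0.37, beside 0.03. All these medians take Junb and Fosl2 by their brighter probes. In Y136F against WT at 4 weeks these gave -0.54 and -1.083, whereas the dimmer probes gave 0.509 and 0.865. Fosl2 also changed sign with the probe in LAT KO against Y136F at 4 weeks, from 0.65 to -0.968. Medians by the dimmer probes are not given, so the Y136F median against WT at 4 weeks gives no direction for the members. The LAT KO and Y136F comparisons with WT share their WT mice, and both share mice with the comparison of LAT KO with Y136F.

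WT cells of the 2 times were compared as well. Between 4 weeks and 1 week, 5 members did not overlap, with Junb, Batf, Batf3 and Atf3 higher and Jund lower at 4 weeks, against 21.5% of all features. By its dimmer probe Junb overlapped, with a difference of -0.01 ± 0.21 (limma adjusted p = 0.988), for a count of 4. None was called, as was no feature of the array, while 19.3% had an unadjusted p under 0.05. The WT mice of the 2 times also differed in labelled sex. No feature was called for a change in the LAT KO effect from 1 to 4 weeks either, with 5.12% at an unadjusted p under 0.05, and among the members with 1 probe that change ran from -0.68 ± 0.40 for Atf3 to 0.41 ± 0.26 for Jund. The change of the Y136F effect was called for 0.514% of all features and for no member, while 8.71% of features, and Jun, Jund and Fosl2 among the members, had an unadjusted p under 0.05. The Fosl2 probes went opposite ways there, at -1.83 ± 0.67 by the brighter and 1.63 ± 0.51 by the dimmer, so Fosl2 has no direction.

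Likeness of pattern was taken as Pearson's r over the 18 arrays against 13654 named genes, as a description of arrays that share groups and scaling. Fos ran closest with Irf4, Egr2 and Egr3 (r = 0.93, 0.93 and 0.89; Spearman's rho = 0.91, 0.90 and 0.86). Irf4 encodes the partner of BATF and JUN dimers, and Egr2 and Egr3 are early response genes of the antigen receptor. Jun ran closest with Fasl, Ifng and Slc15a3 (r = 0.95, 0.94 and 0.94), but Spearman's rho was 0.68, 0.68 and 0.82. The 3 Y136F arrays of 4 weeks and LAT KO replicate 1 of 1 week stood apart from the other 14 by both Jun and Fasl. Fasl encodes a death ligand of effector T cells and Ifng the cytokine interferon gamma.
Batf ran closest with Cks2, Cep55 and Rrm1 (r = 0.97, 0.95 and 0.95), all genes of dividing cells, and Jund with Txnrd1, Furin and Hs6st1 (r = 0.91, 0.90 and 0.90). Among the members themselves, Jun had r = 0.80 with Jund and 0.76 with Batf, whereas Fos had r = 0.16 with Jun and 0.36 with Batf. With Irf4, Jun had r = -0.06 and Batf 0.24. The remaining members' closest genes were Nes, Prmt2 and Ncan for Fosb (r = 0.89 each), Lingo1, Psrc1 and Olfr1054 for Fosl1 (r = 0.90 each), Gipc3, Apex2 and Pinx1 for Fosl2 (r = 0.92, 0.91 and 0.90), Sval2 and Arhgef37 for Batf3 (r = 0.92 and 0.90), and Dgat2, Gask1a and Tfap2d for Atf3 (r = 0.96, 0.95 and 0.95).

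**Figure D4:**
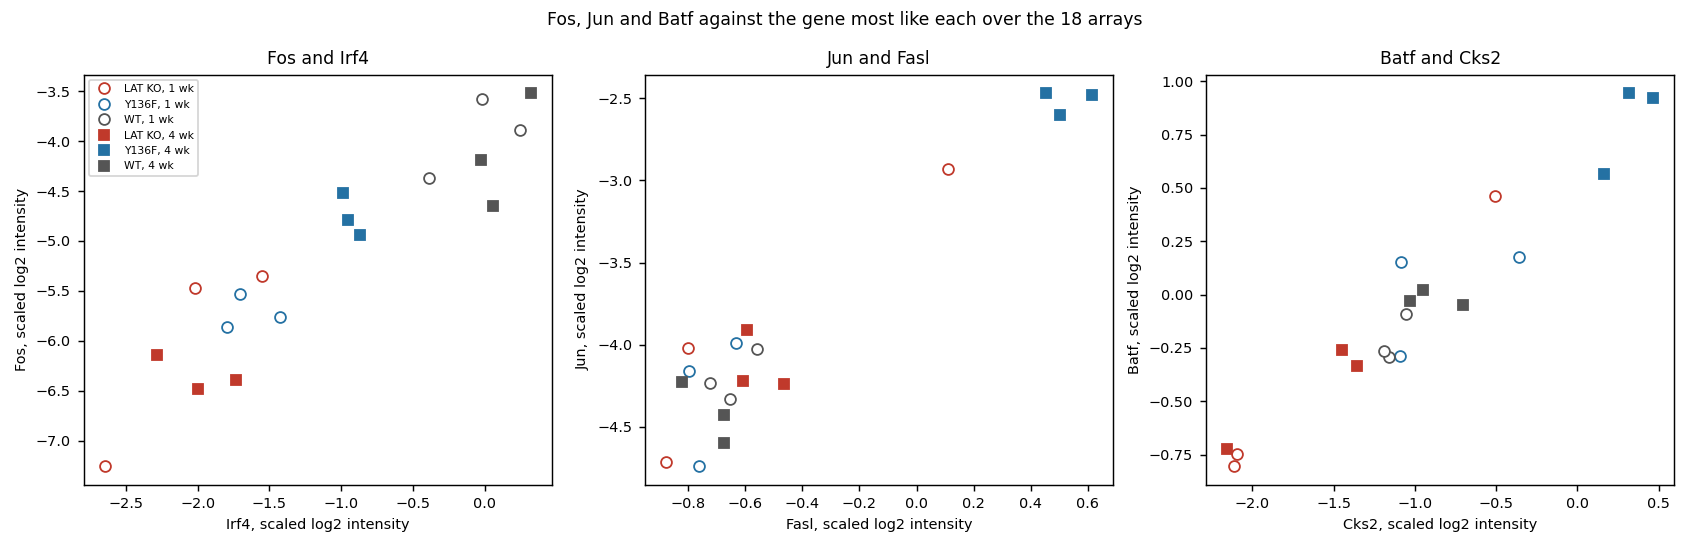
Scaled log2 level of Fos, Jun and Batf (y axes) against the named gene of highest correlation with each (x axes, scaled log2 level of Irf4, Fasl and Cks2), with 1 point per array, open circles for 1 week and filled squares for 4 weeks. Fos and Irf4 lie along one band across all groups, whereas the Jun panel holds 4 arrays apart from the other 14.

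Of 26 measured early response genes outside AP-1, 4 fell in LAT KO against WT at both times, namely Egr1, Egr2, Egr3 and Nr4a1, and the list median was -0.28 at 1 week and -0.34 at 4 weeks. Nr4a1, an orphan receptor gene used as a readout of receptor signal strength, differed by -2.02 ± 0.15 and -1.70 ± 0.15 (limma adjusted p = 5.84e-06 and 8.74e-05). Egr2 differed by -2.44 ± 0.27 and -2.33 ± 0.27 (limma adjusted p = 0.000835 and 0.000989). Without the 2 arrays against their labels Egr1, Egr2 and Nr4a1 were still called at both times, and Egr3 was not (limma adjusted p = 0.0551 and 0.0568). At 4 weeks 7 of the 26 fell in LAT KO against Y136F, with a list median of -0.13, among them Egr1 at -2.14 ± 0.27, Egr2 at -2.17 ± 0.27 and Nr4a1 at -1.20 ± 0.15 (limma adjusted p = 0.000229, 0.000229 and 0.000231), and 5 were called without the 2 arrays. In Y136F against WT, 2 fell at 1 week, Nr4a1 and Egr3, and 1 at 4 weeks, Nfkbia, an inhibitor of NF-kB. Egr1 and Egr2 differed by -1.25 ± 0.27 and -1.56 ± 0.27 in Y136F against WT at 1 week, not called (limma adjusted p = 0.163 and 0.0722). Both were called there without the 2 arrays, which are in neither group compared (limma adjusted p = 0.0206 and 0.00669). Irf4 fell in LAT KO by 2.02 ± 0.23 and 2.12 ± 0.23 (limma adjusted p = 0.000835 and 0.000819) and in Y136F by 1.59 ± 0.23 and 1.05 ± 0.23 (adjusted p = 0.0221 and 0.0154). The LAT KO differences of Irf4 were -2.05 and -2.26 without the 2 arrays (limma adjusted p = 0.00411 and 0.0014).
The 21 measured BATF partners and genes tied to BATF and AP-1 in T cells held Irf4 as their 1 lower call in each of the comparisons of LAT KO or Y136F with WT at 1 week and of LAT KO with WT at 4 weeks. In Y136F against WT at 4 weeks, 4 rose and Irf4 fell, with a list median of 0.53. Ifng rose by 2.67 ± 0.44 (limma adjusted p = 0.002), Pdcd1, for the inhibitory receptor PD-1, by 2.0 ± 0.39 (adjusted p = 0.00657) and Prdm1, for the factor BLIMP-1, by 1.20 ± 0.25 (adjusted p = 0.0108). In LAT KO against Y136F at 4 weeks, 11 of 21 fell, with a median of -1.0. Among them were Maf at -1.65 ± 0.26 (limma adjusted p = 0.00116) and Tnfrsf4, for the costimulatory receptor OX40, at -1.33 ± 0.22 (adjusted p = 0.00183). Leaving out the 2 arrays against their labels, 9 fell there, Maf and Tnfrsf4 among them (-1.38 and -1.24). The list then held 3 lower calls in LAT KO against WT at 1 week, Irf4, Tnfrsf9 and Il21, and 2 at 4 weeks, Irf4 and Tnfrsf9.
Of 20 MAP kinase genes 1 rose in Y136F against WT at 4 weeks, Map2k3, a kinase of p38, by 1.37 ± 0.25 (limma adjusted p = 0.00361), and none of 20 was called in LAT KO against WT at either time. Of 13 other bZIP genes 1 rose, Crem, a cyclic AMP responsive modulator, by 1.26 ± 0.24 (limma adjusted p = 0.00534). Of 12 MAF, NFE2 and BACH genes and 6 measured genes for SRF and its partners, which drive Fos through the CArG box, none was called in LAT KO or Y136F against WT. Leaving out the 2 arrays against their labels, which are in neither group compared, Mafg and Maf were called higher in Y136F against WT at 4 weeks (Maf 0.87 ± 0.17, limma adjusted p = 0.00597). At 4 weeks 2 of the 12 MAF, NFE2 and BACH genes fell in LAT KO against Y136F, Maf and Mafg (-0.79 ± 0.19, limma adjusted p = 0.0286), and 2 of the 13 bZIP genes, Crem (-1.29 ± 0.24, adjusted p = 0.00475) and Atf6 (-0.56 ± 0.14, adjusted p = 0.0323). Map3k3, a MAP kinase kinase kinase gene, rose by 0.81 ± 0.19 (limma adjusted p = 0.0193), 1 of 20, and none of the SRF list was called. Without the 2 arrays against their labels, Maf and Crem kept their calls in LAT KO against Y136F, and Mafg, Atf6 and Map3k3 did not. The lists share genes, as Prdm1 is in the BATF and the effector list and Maf in the BATF and the MAF list.

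Other gene groups moved in the same 4-week Y136F arrays in which Jun, Jund and Batf were highest. Of 20 cell cycle genes 14 rose against WT, with a median of 1.47, and of 20 memory and effector T cell genes 14 rose, with a median of 1.78. The mean scaled log2 level of the cell cycle list was 0.52 to 0.66 in Y136F cells, against -1.08 to -0.76 in WT cells, and that of the effector list 2.33 to 2.58, against 0.38 to 0.70. The summed naive T cell markers, 6 genes, stood at 69.0 to 77.9 times the 75th percentile in Y136F cells and 80.0 to 92.3 in WT cells, and Ccr7, a homing receptor gene of naive T cells, fell by 1.36 ± 0.16 (limma adjusted p = 0.000109). Mki67, a proliferation marker, rose by 2.37 ± 0.30 (limma adjusted p = 0.000246), and over the 18 arrays it had r = 0.90 with Batf and 0.87 with Jun, but rho = 0.79 and 0.40.
Markers of other cells moved too. Of 5 plasma cell genes 3 rose in Y136F against WT at 4 weeks, with summed levels of 6.28 to 8.25 times the 75th percentile against 2.45 to 2.5, and of 12 myeloid genes 1 rose, S100a8. Of 6 NK cell genes 1 rose, Eomes, which effector T cells also express. No B cell marker of 10 was called, at summed levels of 7.88 to 12.6 in Y136F and 7.15 to 9.23 in WT cells. Of 16 heat shock genes 3 fell, Dnajb4, Dnaja1 and Dnajb1, with summed levels of 201 to 236 in Y136F and 265 to 286 in WT cells. The part of each of these lists in the Jun, Jund and Batf differences was not tested.
In LAT KO against WT at 4 weeks no gene of the cell cycle, effector, heat shock or other cell type lists was called, and the cell cycle list stood at -1.41 to -1.0 in LAT KO cells against -1.08 to -0.76 in WT cells. Without the 2 arrays against their labels 1 effector gene, Gzma, was called there, higher. In LAT KO against Y136F, 16 cell cycle and 12 effector genes fell, and 14 and 12 without the 2 arrays. Also lower there were 3 of 5 plasma cell genes (Jchain, Mzb1 and Xbp1), 2 of 12 myeloid genes (S100a8 and S100a9), 2 of 6 NK cell genes (Eomes and Klrb1c) and 3 of 9 CD4 T cell genes (Lat, Cd5 and Cd6). Higher were 3 of 16 heat shock genes (Dnajb4, Dnajb1 and Dnaja1) and 2 of 6 naive T cell genes (Ccr7 and Lef1). When the 2 arrays were left out, S100a8, S100a9, Klrb1c and Lef1 were not called, and the other genes of these small lists were. The part of these lists in the Jun and Batf differences of LAT KO and Y136F was not tested. The LAT KO array of replicate 2 was lowest of its group by the effector list, at 0.34 against 0.91 and 1.13, and by Batf.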

How the data were processed

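Per the labels, RNA was labelled with Cy3 and hybridised to Agilent mouse 4x44k arrays, 1 mouse per array. Per the file headers, the deposited intensity is the processed signal of Agilent Feature Extraction, background-corrected within each array and not normalized between arrays, and the spot flags come from the same software. The submitters' processing notes name Agilent Feature Extraction 10.5 and limma without roles. The deposited series matrix holds log2 values whose normalization is not given in the sources used here; these served as an alternative.

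From the intensity, log2 values minus the 75th percentile of 43379 non-control spots per array were computed, outlier spots were left out and spots of 1 probe averaged. Symbols came by accession from a RefSeq table of GRCm38.p6, which named 24844 of 41174 probes and left 16330 unnamed. Per the file headers, the array design names build mm9, so no probe coordinates are given. The brightest probe per gene, well above background on at least 3 arrays, entered the fit: 31616 features, 17055 of them named. Tests used limma 3.58.1 in R 4.3.3 (statmod 1.5.0), fitting the 6 group means on all 18 arrays with a variance trend on intensity (12 residual degrees of freedom, plus 5.49 prior ones at the median), two-sided and adjusted by Benjamini-Hochberg. The number of arrays limits the precision.

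The members and gene lists were chosen with earlier results of these data known. Named genes are all members, the 3 genes most like each, up to 4 called genes per list and comparison (or 2 of smallest p), Irf4, Nr4a1, Egr1, Egr2 and Lat. A few genes that this rule names are not reported here. Alternatives were normexp background correction (offset 50, on median signals, since the planned mean signals were not used here), quantile normalization, the series matrix, other filters and probe rules, slide, sex or replicate number as a term, array weights, only the groups compared, and left-out arrays. The dimmer probes of Junb and Fosl2 were added after seeing the data. The method was tested on simulated data. Motifs were searched and figures drawn with Python 3.11.15 and matplotlib 3.10.9.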

Additional observations from a re-analysis of the deposited data

How the results depend on the processing

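The number of members called in LAT KO against WT at 4 weeks was 0 and became 1 with normexp and with slide as a random block, both Fos. Array weights, between 0.24 and 4.13, gave 1 called member in LAT KO and 2 in Y136F against WT at 1 week, 3 in LAT KO and 5 in Y136F against WT at 4 weeks, 3 for the change of the Y136F effect and 3 between the WT times, while the features called reached 6 (change of the LAT KO effect) to 4710 (Y136F against WT at 4 weeks). The change of the Y136F effect had 1 member called with series matrix values and 2 with only the groups compared. With labelled sex as a term no member was called in Y136F against WT or in LAT KO against Y136F at 4 weeks (0 against 2 in each), and the features called were 86 against 1071 and 168 against 1066. The cause was not tested. Features called in LAT KO against WT at 4 weeks were 31, and 47 with slide as a random block, 18 with slide as a fixed term, 7 with no intensity trend and 17 without both arrays against their sex label. In LAT KO against Y136F at 4 weeks a fixed slide term gave 683, and the change of the Y136F effect, with 162 called, gave 50 with sex as a term, 486 with only the groups compared and 99 with no trend. The 1-week counts of 6 and 5 in LAT KO and Y136F against WT ranged over 0 to 315 and 0 to 724 in the settings other than left-out single arrays, 0 with only the groups compared and 0 with female mice only. Without 1 array, members called ranged from 1 to 2 in Y136F against WT and from 0 to 2 in LAT KO against Y136F at 4 weeks, and features called from 562 to 1210, from 446 to 864, from 61 to 161 for the change of the Y136F effect and from 5 to 40 in LAT KO against WT at 4 weeks. No direction of a called member reversed. Jun was called in Y136F against WT at 4 weeks in 19 of 20 settings and Jund in 16, and in LAT KO against Y136F Jun was called in 18 of 21 and Batf in 19. Same-numbered mice of different groups, taken as a whole, did not deviate together (median r = -0.053 over 45 pairs, range -0.617 to 0.526). Of these pairs 13 also shared a slide (median r = 0.117) and 32 did not (median r = -0.165). Replicate number and slide thus overlap in part. The replicate block left the number of called members at 2 and 2 in these comparisons and at 0 in the others, and changed the features called in Y136F against WT at 1 week from 5 to 11. Without both arrays against their sex label the change of the Y136F effect had 2 members called, Jun and Jund. Those arrays are in none of its groups, and the differences stayed at 2.0 and 1.04 with smaller errors. In the same fit the calls rose from 3 to 11 of 20 cell cycle genes and from 5 to 13 of 20 effector genes. The share of all features called in that fit is not given here. Fos lies near background in LAT KO arrays, which limits its precision.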
